A study of Mus musculus with 12 samples.

Results

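The tripartite motif (Trim) genes encode proteins built from a RING finger, 1 or more B-boxes and a coiled coil, followed by a carboxy-terminal domain that differs between subfamilies. Members were the genes whose symbol begins with Trim and a digit, without pseudogene symbols, at a mean of at least 0.2 CPM (read counts scaled to the depth of each library) over 12 brain libraries. Of 68 such symbols in the count table, 52 reached this level, and 46 of them passed a filter on low counts and were tested among 14598 genes. RNA-seq was made from brains of wild type C57BL/6 mice, 6 weeks old, in 3 groups of 4 libraries: normal controls, experimental cerebral malaria (ECM), a mouse model of the brain disease of malaria, and ECM treated for 4 days with artesunate, an antimalarial drug of the artemisinin class. The labels name neither the parasite nor the day of infection, so treatment and time since infection cannot be told apart. Nor do they say whether the libraries of a group came from different animals, so p-values measure the spread between libraries.

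Most Trim proteins are E3 ubiquitin ligases, which attach ubiquitin to target proteins through the RING finger. The largest subfamily ends in a PRY-SPRY domain that recognises targets, and many of its members are induced by interferon and act on viruses or on the sensors of viral RNA and DNA. Other subfamilies carry NHL repeats, a PHD finger with a bromodomain, or a COS box. Several of these act in neurons, on chromatin or on microtubules.

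The sequences around the transcription starts of the genes that moved are shown first, since 7 of the 9 members called higher in ECM hold the same short motif there. The capitals mark the letters GAAANNGAA or, on the other strand, TTCNNTTTC, the core of the interferon-stimulated response element (ISRE), and run on where 2 matches overlap. Each run holds 60 bases, read 5′ to 3′ on the strand of its gene, from RefSeq on build GRCm38.p6 (mm10). Trim5 and Trim26, which were not called, are shown beside the called genes.
Trim30a: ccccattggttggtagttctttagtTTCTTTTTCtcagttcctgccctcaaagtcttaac
Trim30d: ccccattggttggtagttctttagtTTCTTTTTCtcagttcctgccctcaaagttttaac
Trim12a: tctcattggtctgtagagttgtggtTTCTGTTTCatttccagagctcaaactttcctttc
Trim5: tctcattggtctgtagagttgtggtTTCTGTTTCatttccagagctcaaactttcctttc
Trim12c: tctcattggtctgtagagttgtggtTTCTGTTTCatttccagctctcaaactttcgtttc
Trim34a: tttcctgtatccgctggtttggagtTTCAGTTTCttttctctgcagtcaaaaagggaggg
Trim21: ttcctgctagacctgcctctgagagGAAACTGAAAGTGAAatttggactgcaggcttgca
Trim25: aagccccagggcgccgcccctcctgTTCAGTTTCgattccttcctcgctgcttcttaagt
Trim26: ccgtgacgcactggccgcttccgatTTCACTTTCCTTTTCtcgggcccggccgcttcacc

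These windows lie at chr7:104465194-104465253 (Trim30a, minus strand), chr7:104507855-104507914 (Trim30d, minus), chr7:104315450-104315509 (Trim12a, minus), chr7:104288120-104288179 (Trim5, minus) and chr7:104353343-104353402 (Trim12c, minus). The others lie at chr7:104244443-104244502 (Trim34a, plus), chr7:102565435-102565494 (Trim21, minus), chr11:88999369-88999428 (Trim25, plus) and chr17:36836962-36837021 (Trim26, plus). Each begins before the RefSeq start of its gene, and those of Trim12a, Trim12c, Trim34a, Trim21 and Trim25 run past it into the transcript. The windows of Trim12a and Trim5 were the same at 60 of 60 bases, Trim12c differed from both at 3, and Trim30a and Trim30d were the same at 59 of 60. RefSeq promoter entries, 250 bases before to 50 bases after a start, were found for 40 of the 52 members. Called members held the ISRE core in 7 of 9, the exceptions being Trim30b and Trim56. These 7 are not independent, since the windows of Trim30a and Trim30d, and of Trim12a and Trim12c, are near copies. Tested members that were not called held it in 4 of the 26 with an entry (Trim2, Trim5, Trim7 and Trim26). Over all genes with an entry the share was 9.76%. The palindromic core of the gamma-activated site, TTCNNNGAA, was in 0 of the 9 called members and in 9.55% of all genes. A match is a run of letters and was not tested as a binding site.

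In brains with ECM, 8 of the 24 tested members grouped as PRY-SPRY, and Trim56, were higher than in controls. The other 16 of that group did not pass the test. Each member was placed in 1 group, so COS-box genes and genes without a RING finger were not counted as PRY-SPRY. With edgeR's quasi-likelihood test, 9 of the 46 tested members were called higher at an adjusted p below 0.05, and 0 lower. Among the 9 is Trim30b, with 1 read in the 4 controls together, which entered the test through the ECM and treated libraries. Of all genes tested, 7.08% were called higher and 3.12% lower. The member median log2 fold change was 0.08, against -0.02 over all genes. An unadjusted p under 0.05 was reached by 14 of the 46 members and by 3289 of all 14598 genes tested. DESeq2 called the same 9 members higher and Trim17 lower. Of the 9, 6 lie in 1 cluster on chromosome 7, and Trim21 lies on the same chromosome outside it, while 14 of all 52 members lie on chromosome 7.

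**Figure D1:**
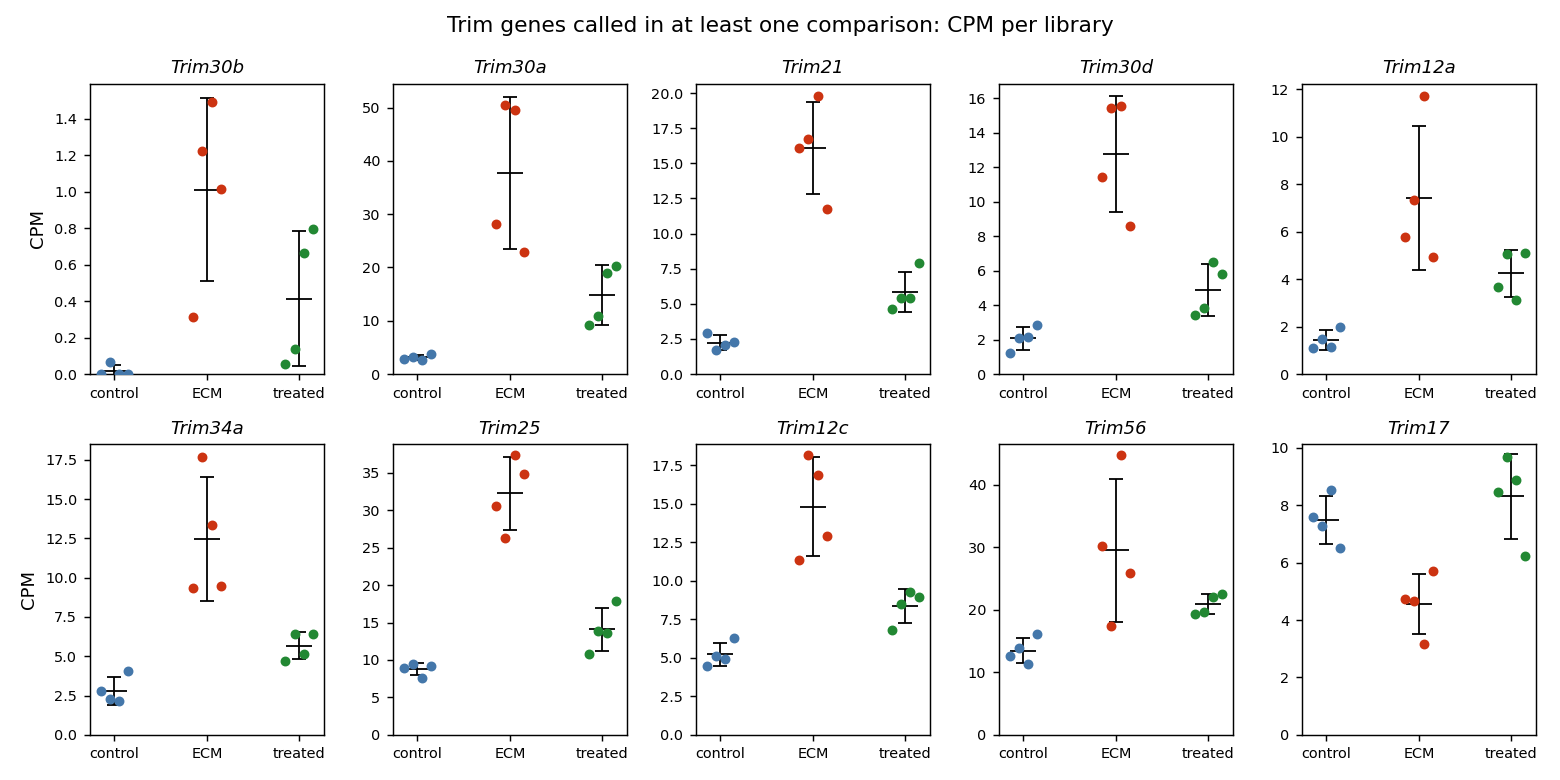
CPM of the 10 Trim genes called in at least 1 comparison (vertical axes, each starting at 0) in 4 control, 4 ECM and 4 treated ECM libraries. Points are libraries 1 to 4 from left to right, and bars are mean ± SD. For Trim30a the ECM libraries lie at 22.8 to 50.4 CPM, above all treated libraries at 9.22 to 20.2 and all controls at 2.67 to 3.79.

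The chromosome 7 cluster (104218793 to 104507849, 289 kb, coordinates of GENCODE M21 on mm10) holds 10 Trim genes, 8 of them members. Trim30a, which in mice limits NF-kB signalling by removing the adaptors Tab2 and Tab3, showed the largest ECM difference among cluster members with reads in every control. It stood at 2.88, 3.25, 2.67 and 3.79 CPM in controls 1 to 4, at 28.2, 50.4, 49.5 and 22.8 in ECM 1 to 4, and at 9.22, 10.9, 19.0 and 20.2 in treated 1 to 4. No library of 1 group reached into another group, and ECM 2 and ECM 3 were the highest. The ECM mean of 37.7 ± 14.3 (SD, n = 4) against 3.15 ± 0.492 CPM was 11.9-fold higher (log2 3.58 ± 0.34 SE, edgeR adjusted p = 1.31e-05).

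Its neighbour Trim30d, a close relative, had 1.22, 2.08, 2.14 and 2.86 CPM in controls, 11.4, 15.4, 15.5 and 8.61 in ECM libraries, and 3.40, 3.83, 6.50 and 5.82 in treated ECM. The groups again did not overlap, and the lowest ECM library was ECM 4, as for Trim30a. Trim30d was 6.15-fold higher in ECM (log2 2.62 ± 0.32, edgeR adjusted p = 0.000102). Of the 50-base windows of the Trim30a transcripts, 5.98% also occur in Trim30d, where reads of the 2 genes cannot be told apart.

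Trim30b had 1 read in the 4 controls together, 56 in ECM and 25 in treated ECM. In CPM it was at 0, 0.0650, 0 and 0 in controls, 0.316, 1.22, 1.5 and 1.02 in ECM libraries, and 0.0549, 0.139, 0.663 and 0.794 in treated ECM. It entered the test through the ECM and treated libraries. Its ECM to control ratio was 60.9, with a 95% interval from counting error alone of 10.5 to 2446 (edgeR adjusted p = 0.00473). Trim30c, just under the CPM minimum and not a member, had 0 reads in controls, 9 in ECM and 18 in treated ECM.

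Trim12a and Trim12c are mouse relatives of the primate retrovirus restriction factor TRIM5. Trim12a stood at 1.11, 1.5, 1.14 and 2.0 CPM in controls, 5.76, 7.34, 11.7 and 4.92 in ECM libraries, and 3.68, 5.08, 3.12 and 5.10 in treated ECM. All ECM libraries exceeded all controls, while ECM 4 lay below treated 2 and treated 4. Trim12a was 5.14-fold higher in ECM than in controls (log2 2.36 ± 0.33, edgeR adjusted p = 0.000311).

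Trim12c had 4.49, 5.13, 4.96 and 6.30 CPM in controls, 11.4, 18.2, 16.9 and 12.9 in ECM libraries, and 6.81, 8.49, 9.29 and 8.94 in treated ECM, with no overlap between groups. It was 2.84-fold higher in ECM (log2 1.5 ± 0.21, edgeR adjusted p = 0.000271). Of its 50-base windows 24.2% also occur in Trim5, so its reads are less certain than those of Trim12a, where the share is 5.04%.

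Trim5, whose window in the promoter matched that of Trim12a base for base, had 0.887, 0.910, 1.30 and 1.29 CPM in controls, 1.42, 1.39, 2.33 and 0.802 in ECM libraries, and 0.769, 1.11, 0.597 and 0.662 in treated ECM. Its groups overlapped, and it did not pass the test (log2 0.43 ± 0.36 in ECM against control, edgeR adjusted p = 0.556). Trim5 had 65 reads in controls, 78 in ECM and 49 in treated ECM. Of its 50-base windows, 36.6% also occur in other genes, with 23.5% in Trim12c and 7.87% in Trim12a. The difference between Trim5 and Trim12a was not tested.

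Trim34a, the mouse counterpart of the interferon-responsive human TRIM34, completed the cluster's called genes. Controls had 2.77, 2.27, 2.14 and 4.08 CPM, ECM libraries 9.31, 17.7, 13.4 and 9.46, and treated libraries 4.72, 6.41, 5.17 and 6.42. The groups did not overlap, and the ECM mean was 4.41-fold the control mean (log2 2.14 ± 0.28, edgeR adjusted p = 0.000174). Its near copy Trim34b, with 5 reads in controls and 3 in each of the other groups, shares 39.8% of the Trim34a windows. Exons of Gm47248, on the other strand, overlap 609 exonic bases of Trim34a and hold 20.2% of its windows. In all, 59.7% of the Trim34a windows also occur in other genes. The remaining cluster member, Trim6, was not tested, at 0.0763 to 0.260 CPM in controls and 0.0789 to 0.588 in ECM.

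**Figure D2:**
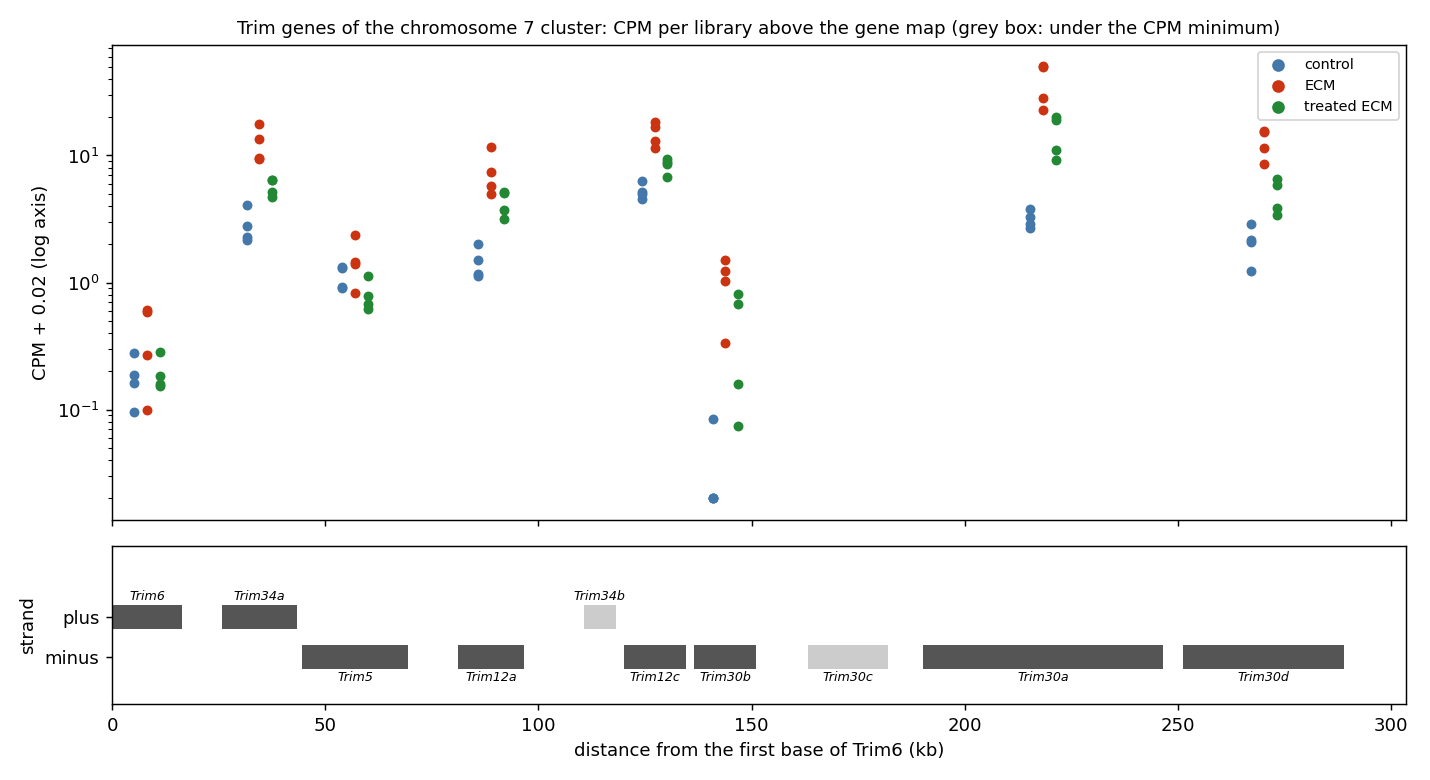
CPM + 0.02 per library on a log axis (upper panel) of the 8 member genes of the chromosome 7 cluster, drawn at the position of each gene in kb from the first base of Trim6. The lower panel maps the 10 genes by strand, with the 2 genes under the CPM minimum in light grey. Red ECM points lie above blue control points in each gene from Trim34a on except Trim5, where the groups overlap at about 1 CPM.

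Outside the cluster, the 3 remaining called genes lie on chromosomes 7, 11 and 5. Trim21 (chromosome 7, 102557921 to 102565486, minus strand) encodes an intracellular antibody receptor that directs antibody-coated particles to the proteasome. It was at 2.94, 1.69, 2.06 and 2.29 CPM in controls, 16.1, 16.7, 19.8 and 11.8 in ECM libraries, and 4.61, 5.43, 5.44 and 7.88 in treated ECM. The 3 groups were fully separate. Trim21 was 7.11-fold higher in ECM (log2 2.83 ± 0.26, edgeR adjusted p = 9.04e-06).

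Trim25 (chromosome 11, 88999376 to 89020293, plus strand) encodes a ligase that acts with the viral RNA sensor RIG-I and with the antiviral protein ZAP. Control libraries held 8.93, 9.42, 7.63 and 9.23 CPM, ECM libraries 30.5, 26.2, 37.3 and 34.8, and treated libraries 10.8, 13.9, 13.7 and 17.9. Its groups did not overlap, and treated 4 was the highest of the treated libraries. The ECM level was 3.66-fold the control level (log2 1.87 ± 0.19, edgeR adjusted p = 1.94e-05).

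Trim56 (chromosome 5, 137105644 to 137116209, minus strand), a ligase linked to signalling from cytosolic DNA and double-stranded RNA, has no further domain after the coiled coil. Its libraries were at 12.6, 13.8, 11.4 and 16.1 CPM in controls, 30.1, 17.4, 44.8 and 25.8 in ECM libraries, and 19.4, 19.6, 22.0 and 22.6 in treated ECM. All ECM libraries exceeded all controls, ECM 2 only just, and the ECM and treated ranges overlapped. Trim56 was 2.19-fold higher in ECM (log2 1.13 ± 0.24, edgeR adjusted p = 0.00787).

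Treated ECM against untreated ECM shows which of these genes were lower in the treated libraries than in the untreated ones. Of the 46 tested members, 6 were called lower in treated ECM (Trim21, Trim25, Trim30a, Trim30d, Trim34a and Trim12c) and 1 higher (Trim17). Among all genes tested, 5.19% were called lower and 3.17% higher. The member median log2 fold change was -0.13, against 0.00 over all genes. The 6 lower genes had also been called higher in ECM, but both comparisons use the same ECM libraries, so the 2 counts are not independent. Trim21 was 2.75-fold lower (16.1 ± 3.30 in ECM and 5.84 ± 1.41 CPM in treated ECM, log2 -1.46 ± 0.24, edgeR adjusted p = 0.00364). Trim25 was 2.29-fold lower (32.2 ± 4.86 and 14.1 ± 2.90 CPM, log2 -1.20 ± 0.18, edgeR adjusted p = 0.00238). These 2 calls held in each alternative fit, including those that left out 1 library.

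Trim30a was 2.54-fold lower in treated ECM (37.7 ± 14.3 and 14.8 ± 5.55 CPM, edgeR adjusted p = 0.0183), and Trim30d 2.60-fold lower (edgeR adjusted p = 0.0145). Both calls ended without treated 1 or treated 2, the libraries with the lowest Trim30a (adjusted p up to 0.0803 for Trim30a and 0.0596 for Trim30d over all alternatives). Trim34a (2.19-fold lower, edgeR adjusted p = 0.0224) lost its call without any 1 of the 4 treated libraries (up to 0.0759). Trim12c (1.77-fold lower, edgeR adjusted p = 0.0269) lost it without ECM 3 or any treated library (up to 0.0902). Without treated 1 or treated 2, the number of called members was 2, Trim21 and Trim25, and without treated 3 it was 4. Trim12a, Trim56 and Trim30b were not called (edgeR adjusted p = 0.121, 0.204 and 0.243).

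Trim17, a ligase of neurons known for a part in neuronal apoptosis (chromosome 11, 58954685 to 58973098, plus strand), differed the other way. It was at 7.60, 7.28, 8.54 and 6.51 CPM in controls, 4.74, 4.65, 3.16 and 5.72 in ECM libraries, and 8.46, 9.68, 8.89 and 6.22 in treated ECM. Each ECM library was below every control and every treated library, and the control and treated ranges overlapped. It was 1.81-fold higher in treated ECM (log2 0.86 ± 0.22, edgeR adjusted p = 0.0333) and not called in ECM against control (log2 -0.71 ± 0.22, edgeR adjusted p = 0.0637). The treated against ECM call ended without ECM 1, 2 or 3 or treated 1, 2 or 3 (up to 0.106), and with only the 2 groups compared in the fit (0.0607). Markers of striatum, summed over 6 genes, were at 625 to 1076 CPM in controls, 243 to 779.6 in ECM and 748 to 985 in treated ECM, with 4 of 6 called lower in ECM and 3 of 6 higher in treated ECM against ECM, and their part in the Trim17 difference was not tested. Exons of Hist3h2a overlap Trim17, and 17.7% of the 50-base windows of Trim17 also occur there.

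**Figure D3:**
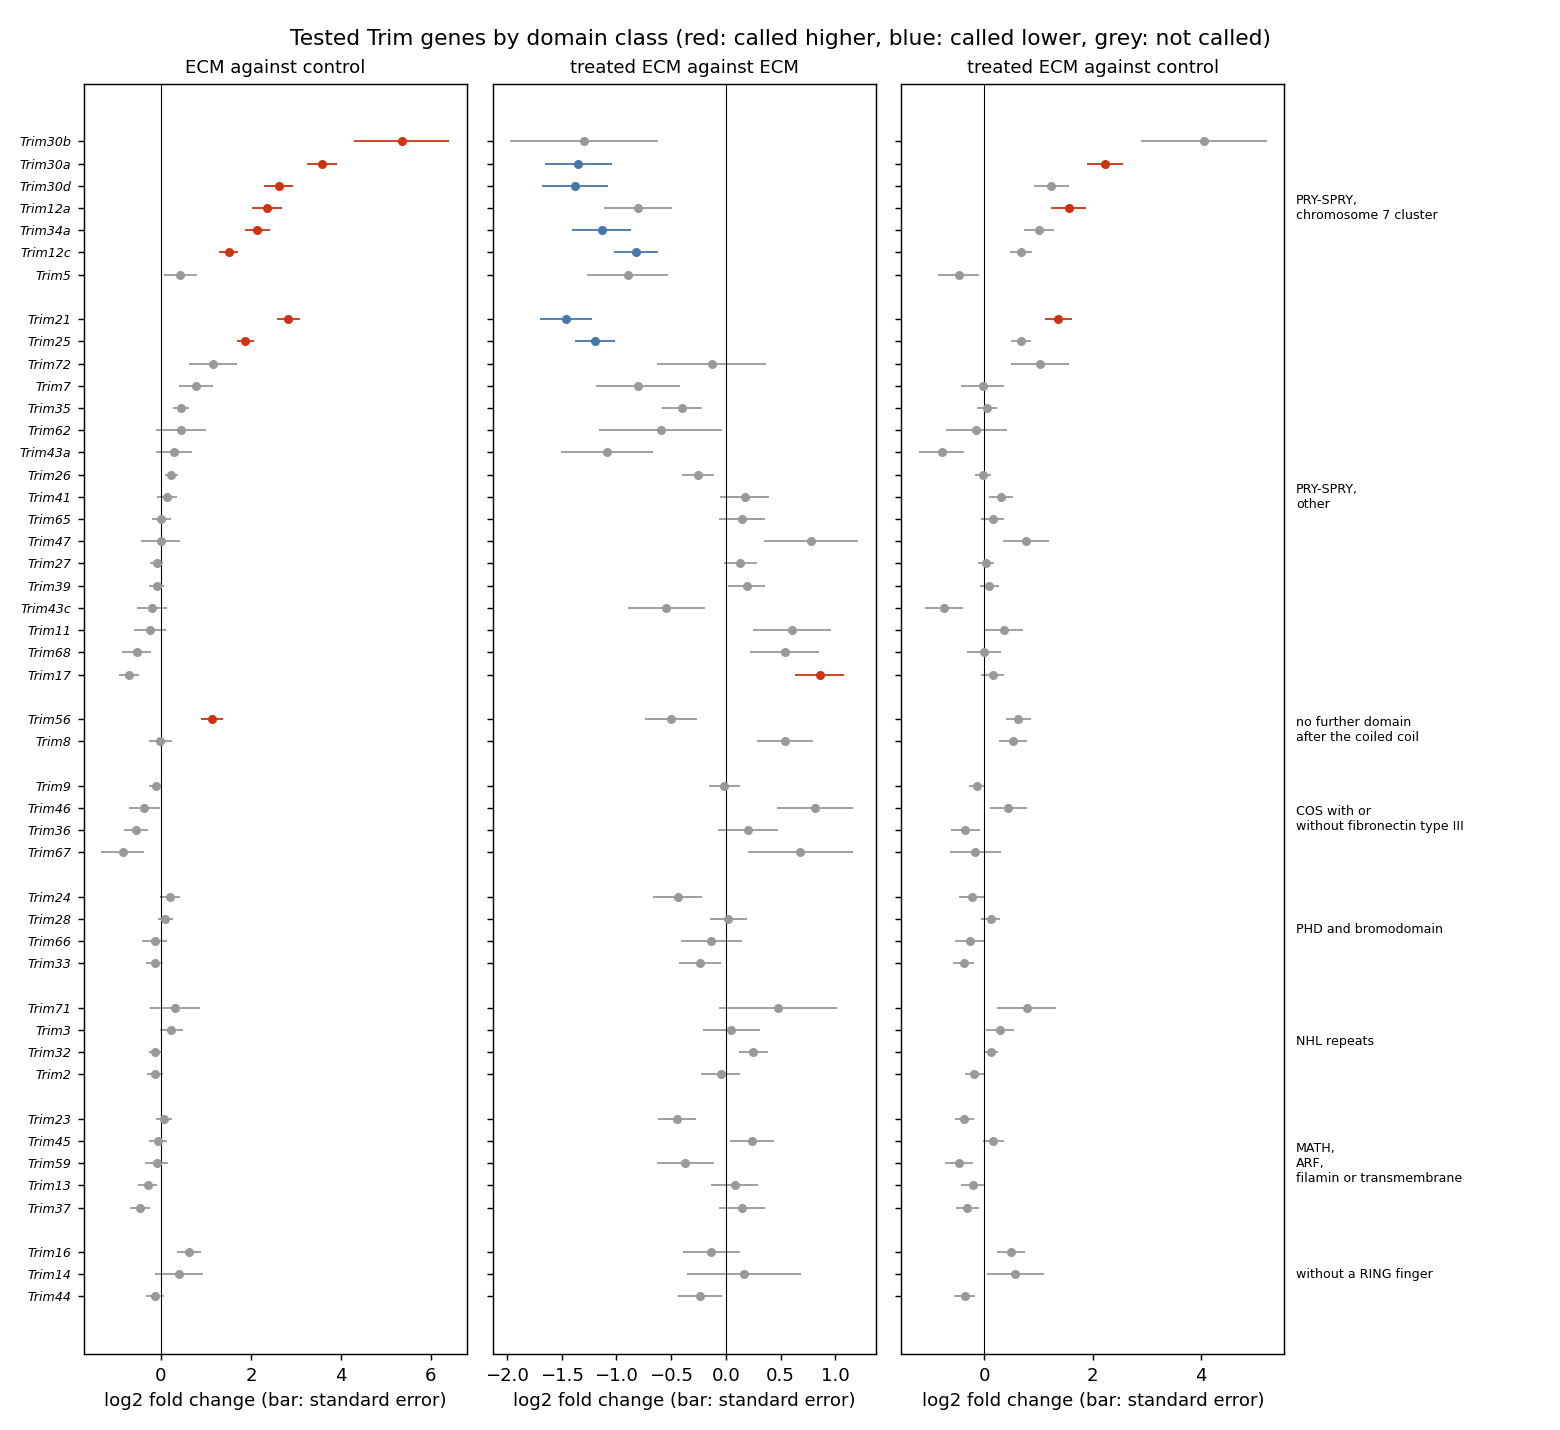
Log2 fold changes (points) with standard errors (bars) of the 46 tested Trim genes, grouped by carboxy-terminal domain, in the 3 comparisons, each with its own horizontal scale. Red marks genes called higher and blue genes called lower; the 9 red genes of the left panel lie in the PRY-SPRY groups apart from Trim56, and 6 of them are blue in the middle panel.

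Treated ECM against control shows which members differed between the treated libraries and the controls. Trim30a, Trim21 and Trim12a were called higher, and 0 of the 46 members lower. Of all genes tested, 1.98% were called higher and 0.0548% lower. The member median was 0.12, against 0.00 over all genes. Trim30a was 4.70-fold above controls (14.8 ± 5.55 against 3.15 ± 0.492 CPM, log2 2.23 ± 0.33, edgeR adjusted p = 0.00163). Trim21 was 2.59-fold higher (log2 1.37 ± 0.25, edgeR adjusted p = 0.00851) and Trim12a 2.95-fold higher (4.24 ± 1.00 against 1.44 ± 0.416 CPM, log2 1.56 ± 0.33, edgeR adjusted p = 0.0219).

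The Trim12a call ended without control 1, 2 or 3 or treated 2 or 4 (up to 0.0948). Trim30d, Trim25, Trim34a, Trim12c and Trim56 had higher values in every treated library than in any control but missed the threshold (edgeR adjusted p = 0.0725, 0.108, 0.112, 0.172 and 0.344). Members not called in ECM separated in both directions. Trim8, Trim46 and Trim47 were also higher in every treated library than in any control. Trim2, Trim23, Trim37 and Trim66 were lower in every treated library than in any control, and none of them was called. The share of all genes that separate in either way was not counted. The count of called members rose to 5 without control 4, with Trim30d and Trim34a added, and to 5 without treated 1, with Trim30d and Trim30b added. DESeq2 called 7, adding Trim30d, Trim25, Trim30b and Trim34a. An unadjusted edgeR p under 0.05 was reached by 9 members and by 1667 of all 14598 genes tested, and DESeq2 called 0 members lower.

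The other subfamilies had 0 of 20 tested members called in any comparison by edgeR in the fit of all 12 libraries. Trim56, called in ECM, and Trim8 have no further domain after the coiled coil and are not among the 20. DESeq2 called none of the 20 either. Of all genes, 7.08% were called higher and 3.12% lower in ECM. The shares were 3.17% and 5.19% in treated ECM against ECM, and 1.98% and 0.0548% in treated ECM against control. A count of 0 among 20 was not tested against these shares. Without ECM 4, Trim23 was called lower in treated ECM against ECM (log2 -0.55, edgeR adjusted p = 0.0486). An unadjusted edgeR p under 0.05 was reached by 2 of them in ECM against control, 2 in treated ECM against ECM and 0 in treated ECM against control. Their differences in ECM against control ranged from log2 -0.85 for Trim67 to log2 0.63 for Trim16, both not called. The NHL-repeat genes Trim2, Trim3, Trim32 and Trim71, among them ligases of neurons and the developmental regulator Trim71, had median log2 fold changes of 0.05 for ECM against control, 0.15 for treated ECM against ECM and 0.20 for treated ECM against control. In the same order, the chromatin co-regulators Trim24, Trim28, Trim33 and Trim66 had medians of -0.02, -0.18 and -0.25. The microtubule-linked COS-box genes Trim9, Trim36, Trim46 and Trim67 had medians of -0.46, 0.44 and -0.15, with Trim46, a marker of the axon's first segment, at 52.4 CPM over all libraries. Trim13 and Trim59, anchored in membranes, Trim23, which carries an ARF GTPase domain, Trim37 and Trim45 had medians of -0.09, 0.08 and -0.32. Genes whose products lack a RING finger, Trim14, Trim16 and Trim44, had medians of 0.41, -0.13 and 0.50.

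Among members grouped as PRY-SPRY outside the cluster, Trim21 and Trim25 were the 2 of 17 called in ECM against control. Trim7, Trim11, Trim26, Trim27, Trim35, Trim39, Trim41, Trim43a, Trim43c, Trim47, Trim62, Trim65, Trim68 and Trim72 were called in no comparison. Trim72, a membrane repair gene of muscle, had the largest difference of these in ECM (log2 1.16 ± 0.54, edgeR adjusted p = 0.220). Trim62 stood out by 1 library, at 225 CPM in ECM 2 against 29.8 to 83.9 in the other ECM libraries. ECM 2 also had the highest cerebellum markers, 2710 CPM summed over 6 genes, where the other ECM libraries had 42.1, 74.7 and 761.5, and their part in the Trim62 value was not tested. Trim8, which shares the lack of a further domain with Trim56, was at 58.2, 57.7 and 83.8 CPM in the 3 groups and not called. Trim6, Trim15, Trim29, Trim40, Trim54 and Trim63 were too low to be tested, and the last 2 are muscle ligases. Next to the CPM minimum, Trim6 at 0.236 and Trim63 at 0.252 CPM were the lowest members, and Trim58 at 0.177, Trim80 at 0.162 and Trim30c at 0.155 the highest of the 16 symbols left out.

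Levels per length order the family differently from the fold changes. In controls the highest mean levels per kb of exon (RPKM, from GENCODE M21 exon lengths) were those of Trim44 at 84.5, Trim37 at 83.8, Trim32 at 61.9 and Trim35 at 40.8, followed by the co-repressor Trim28 at 29.6. None of these neighbours was tested against the next. The 9 genes called higher in ECM had a median control level of 0.766 (0.00216 to 1.53), against 4.62 in the tested members that were not called. Trim30a moved from rank 35 of 52 in controls to rank 15 in ECM and rank 20 in treated ECM, and Trim21 from 37 to 22 and 33. Trim25 reached 5.60 RPKM in ECM, at rank 17.

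**Figure D4:**
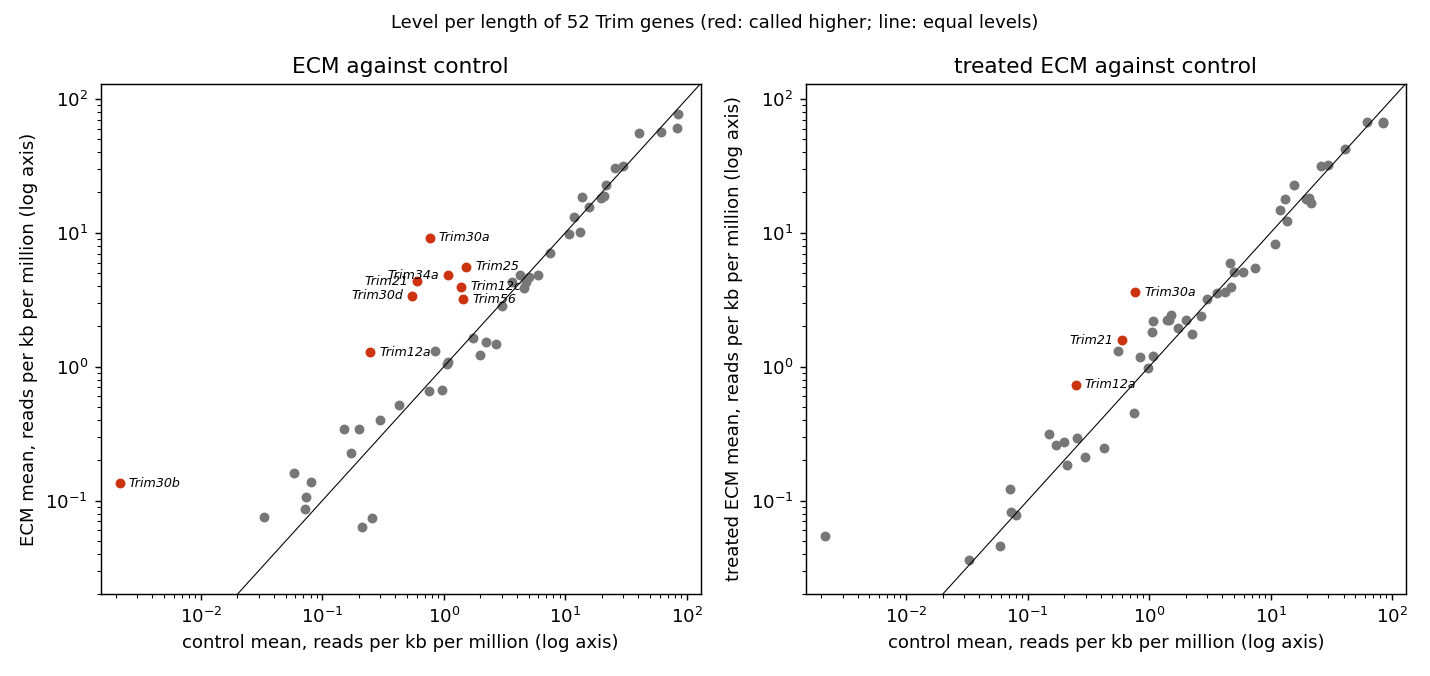
Mean level per length of the 52 members in RPKM on log axes, control (horizontal) against ECM (left) and treated ECM (right). Each point is 1 gene, red where called higher, and the line marks equal levels; Trim30a rises from 0.766 in controls to 9.18 in ECM and 3.61 in treated ECM.

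Lists of genes that act with Trim proteins held called members as well, beside 7.08% of all genes called higher in ECM, 5.19% lower and 3.17% higher in treated ECM against ECM, and 1.98% higher in treated ECM against control. Of 20 partners in RNA and DNA sensing, 8 were called higher in ECM, 8 lower and 1 higher in treated ECM against ECM, and 3 higher in treated ECM against control. The RNA sensor genes Ddx58 (which encodes RIG-I, the partner of Trim25) and Ifih1 were higher in ECM by log2 2.49 and 2.11 and lower in treated ECM by log2 1.69 and 1.52. Their relative Dhx58 was higher by log2 2.80 and lower by log2 1.28, and the nucleic acid sensor gene Zbp1 was higher by log2 6.31 in ECM and not called in treated ECM against ECM (log2 -0.63, edgeR adjusted p = 0.282). Of 19 tested ubiquitin and ubiquitin-like enzymes and modifiers, 5 were called higher in ECM (Isg15, Usp18, Ube2l6, Uba7 and Herc6) and 4 lower in treated ECM against ECM (Isg15, Usp18, Ube2l6 and Herc6). Against control, Isg15, Usp18, Ube2l6 and Uba7 were called higher in treated ECM. Of 17 interferon signalling genes, 8 were called higher in ECM, among them Irf7, Socs3 and Irf1 at log2 4.63, 4.25 and 3.0, while 6 were called lower in treated ECM against ECM and 7 higher against control. Among 4 family members under other symbols, Pml, which forms nuclear bodies, was called higher in ECM (12.6 ± 3.07 and 19.6 ± 1.77 CPM, log2 0.63, edgeR adjusted p = 0.0433), Mid1 and Mid2 were not, and Mefv was not tested.

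Tested markers of T cells, monocytes and neutrophils and 3 of 5 of brain endothelium were higher in ECM, as were the Trim genes called higher there. In brain tissue a higher share of such cells and more RNA per cell cannot be told apart. T and NK cell markers, summed over 7 genes, were at 0.111 to 0.715 CPM in controls, 21.2 to 34.6 in ECM and 2.99 to 9.53 in treated ECM. Cd3g and Ncr1 were at 0 in all controls. The 5 tested markers (Cd3e, Cd3g, Cd3d, Cd8a and Cd2) were called higher in ECM and 4 of them lower in treated ECM against ECM. The NK markers Ncr1 (0, 3 and 8 reads in controls, ECM and treated ECM) and Klrb1c (1, 16 and 7) were not tested. Monocyte markers were at 0.534 to 1.04, 81.5 to 226 and 11.3 to 24.8 CPM, with 5 of 5 called higher in ECM and 5 of 5 lower in treated ECM. Neutrophil markers were at 0.195 to 0.499, 3.39 to 9.38 and 2.31 to 4.30 CPM, and the ECM and treated ranges overlapped. Of these, 3 of 3 tested were called higher in ECM, and 1 of 3 lower in treated ECM against ECM. Microglial markers were at 302 to 329, 241 to 365 and 251 to 366 CPM, with 0 of 5 called by edgeR in each comparison (unadjusted p under 0.05 in 2, 0 and 1). Markers of brain endothelium were at 196 to 252, 321 to 362 and 183 to 232 CPM, with 3 of 5 called higher and 1 lower in ECM. In treated ECM against ECM, 2 of the 5 (Pecam1 and Cdh5) were called lower and 0 higher. Erythroid markers went the other way, at 11.7 to 47.4 CPM in controls, 0 to 0.789 in ECM and 14.2 to 86.5 in treated ECM, with 3 of 4 tested called lower in ECM and 3 of 4 higher in treated ECM against ECM. Of 5 astrocyte markers, 1 (Aldh1l1) was called higher in ECM (log2 1.15, edgeR adjusted p = 0.00145) and lower in treated ECM against ECM (log2 -0.70, edgeR adjusted p = 0.0410). Of 5 oligodendrocyte markers, 1 (Mobp) was called higher in ECM (log2 0.87, edgeR adjusted p = 0.0228) and 0 in the other comparisons. The part of any of these cells in the Trim differences was not tested. Neuronal markers were high in every library, at 4238 to 7953 CPM over 5 genes.

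The libraries differed in depth and composition. Reads in the genes used for scaling were 12767654 to 18063035 per library, and mitochondrial reads were 4.96% to 15.8%. Cerebellum markers, summed over 6 genes, were at 164 to 1625 CPM in controls, 42.1 to 2710 in ECM and 192 to 1541 in treated ECM. Choroid plexus markers, summed over 4 genes, were at 54.8 to 620.5, 9.47 to 386 and 69.1 to 876 CPM. The part of brain regions in the Trim differences was not tested. Among the 46 tested members, the deviation of a library from its group mean followed the GC content of the transcripts in some libraries, with a Spearman rho across members (which are not independent) of -0.79 in control 4, -0.69 in ECM 3 and 0.86 in ECM 4. Transcripts of the 9 called genes had a median GC of 41.9%, against 51.4% in tested members that were not called. Left out together, control 4, ECM 2 and ECM 3, chosen after the data were seen, left all 9 genes called higher in ECM and added Trim35 (log2 0.43, edgeR adjusted p = 0.0111). In treated ECM against ECM the same fit called 6 lower, with Trim35 and Trim56 in place of Trim30a and Trim12c, and 0 higher, so that Trim17 was not called (edgeR adjusted p = 0.0578).

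**Figure D5:**
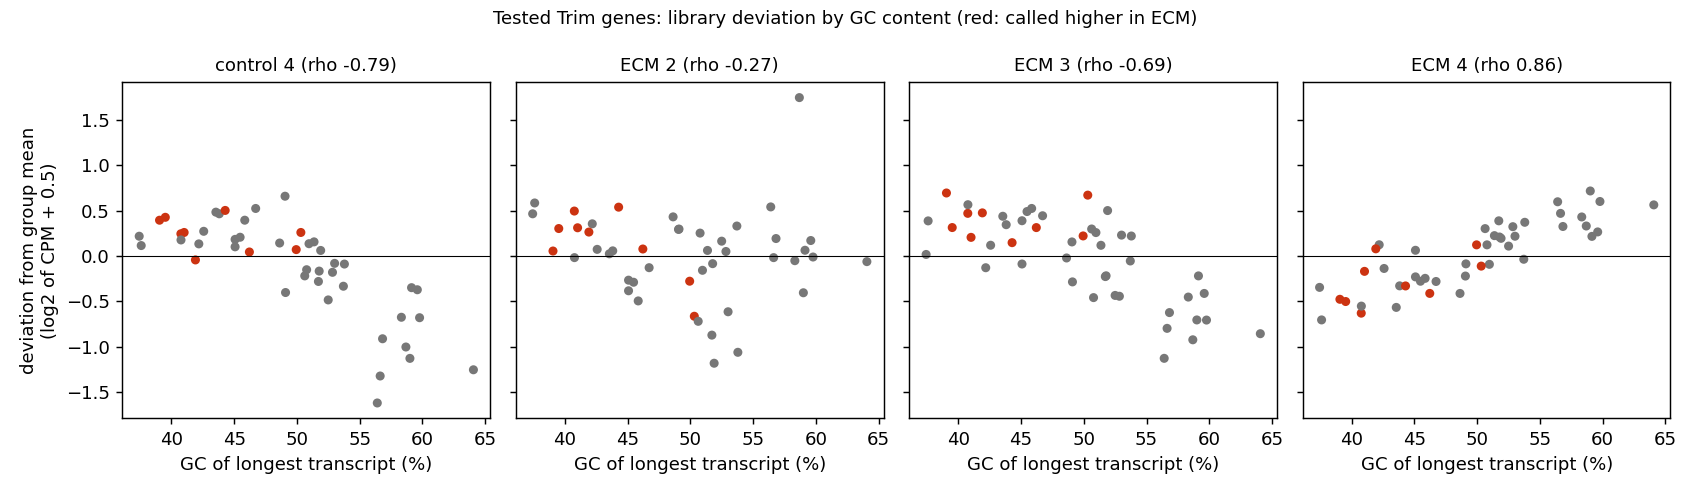
Deviation of 4 libraries from their group mean (log2 of CPM + 0.5, vertical) against the GC percentage of the longest transcript (horizontal) for the 46 tested Trim genes, with the 9 called higher in ECM in red. GC-rich members lie low in control 4 and ECM 3 and high in ECM 4.

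The authors' deposited tables hold only genes with an absolute log2 fold change of at least 1 and an unadjusted p of at most 0.05, so smaller differences such as those of Trim12c and Trim17 in treated ECM against ECM are not listed. For ECM against control, the authors' deposited table lists the same 9 members as higher. It also lists 2 genes that are not members, Trim30c as higher (log2 3.74, adjusted p of 0.263 in the authors' deposited table) and Trim75 as lower (log2 -3.35, adjusted p of 0.216). For treated ECM against ECM, the authors' deposited table lists Trim21, Trim25, Trim30a, Trim30d and Trim34a as lower, with Trim43a at log2 -1.10 and an adjusted p of 0.174. Trim43a was at 0.610 to 1.14 CPM in controls, 0.652 to 1.5 in ECM and 0.265 to 0.696 in treated ECM, and was not called (log2 -1.09 ± 0.42, edgeR adjusted p = 0.122). Of its 50-base windows, 45.9% also occur in other genes, among them its near copies Trim43b and Trim43c. For treated ECM against control, the authors' deposited table lists Trim12a, Trim21, Trim30a, Trim30d and Trim34a as higher at adjusted p values of 7.16e-11 to 0.0104, Trim30b at 0.0623, and Trim30c at 0.0481 with a log2 fold change of 4.60.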

How the data were processed

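Total RNA was kept in RNAlater, extracted with Trizol and made into libraries with a NEBNext Ultra kit, per the labels' protocols. The deposited read count of each gene was made with STAR and HTSeq on mm10 after Trimmomatic and FastQC, per the submitters' processing notes. The sources used here give no versions, annotation or strand setting, so antisense reads could not be separated. The authors' deposited tables of comparisons give a log2 fold change and a p-value, per the file headers.

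The count table held 21983 rows, and 26 with names turned into dates or blank were left out. In 2212 genes with names of 8 or more characters the values had been displaced. They were put back and fitted with 11 libraries, without treated 4, whose values differed from the authors' deposited tables in 109 of 118 cases, against 0 elsewhere. No Trim gene was among them. The planned fit was otherwise kept.

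Counts were scaled by TMM on the 19745 genes with shorter names, filtered with filterByExpr and tested with edgeR 4.0.16 (R 4.3.3) in 1 quasi-likelihood fit of the 3 group means, with Benjamini-Hochberg adjustment over 14598 genes in each comparison. The script was tested on simulated data. Alternatives were DESeq2 1.42.0, RLE scaling, no filter, only the groups compared, a replicate block, leaving out each library, and members of at least 1 CPM. Intervals of low-count ratios cover counting error only. No pair of libraries in a group agreed within sampling noise. Windows of 50 bases shared between genes, exon lengths and GC came from GENCODE M21, promoter sequences from RefSeq GRCm38.p6. Other tools were Python 3.11.15, numpy 2.4.6, pandas 2.3.3, scipy 1.17.1 and matplotlib 3.10.9. Members called in at least 1 comparison are given by library, the others by class, and up to 4 called genes of each other list are named. Some genes of this rule and of the marker lists are not reported here. The members and lists were chosen with earlier results of these data known.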

Additional observations from a re-analysis of the deposited data

Results flagged for a closer look

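In 138 groups of 4 libraries (the 46 tested members in 3 groups), 1 library lay far from the other 3 by Dixon's criterion at 95% in 11. Chance gives about 1 in 20. Control 4 was low in 4 members whose transcripts are GC-rich: Trim3 at 59.1 CPM against 132 to 143 in the other controls, Trim11 at 5.58 against 19.9 to 20.4, Trim46 at 20.8 against 57.4 to 61.3, and Trim47 at 0.788 against 3.44 to 3.72. None of these 4 was called in any comparison. In ECM, Trim45 was low in ECM 2 at 6.12 CPM against 10.9 to 11.4, and Trim35 was low in ECM 3 at 187 against 273 to 284. In treated ECM, Trim43c was low in treated 1 at 0.549 CPM against 0.993 to 1.04, Trim14 was high in treated 2 at 1.88 against 0.860 to 0.879, Trim47 was low in treated 3 at 3.98 against 5.27 to 5.36, and Trim71 was low in treated 4 at 0.596 against 1.26 to 1.39. Trim30b was at 0.0650 CPM, 1 read, in control 2 and at 0 in the other controls.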

How the results depend on the processing

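Of 19 calls of named genes, 13 held in every alternative that could be fitted, and over 341 refits 309 kept the call, 32 lost it and 0 reversed. All 9 calls in ECM against control held, except that Trim30b was not tested when only those groups were fitted. The ECM against control member median of 0.08 became 0.0043 with only the 2 groups compared and -0.0091 over members of at least 1 CPM. Leaving out 1 library, it ran from 0.0347 to 0.1633, the treated against ECM median from -0.1545 to -0.0521, the treated against control median from 0.0605 to 0.1509, and the numbers of called members from 9 to 10, 2 to 8 and 2 to 5. Without control 4, ECM 2 and ECM 3 the last 2 medians were -0.0655 and 0.0486, and 7 members were called in treated ECM against control, as with DESeq2 (7). The cause was not tested. Replicate numbers are shared by the groups, and the labels do not say whether they pair libraries. Correlations between groups ran from -0.613 to 0.3 for same-numbered libraries and from -0.497 to 0.684 for the others. These values cannot decide whether the numbers pair them. With a replicate block, 9, 4 and 2 members were called in the 3 comparisons. The block ended the treated against ECM calls of Trim34a, Trim12c and Trim17 and the treated against control call of Trim12a, and no other call of a named gene. Low counts limit Trim30b, Trim6, Trim15, Trim29, Trim40, Trim54 and Trim63.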
